A study of Macaca fascicularis with 12 samples.

Results

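Genes of the integrated stress response and the unfolded protein response were examined in macaque brain that had been injected with a baculovirus vector. The members were TRIB3, DDIT3, ATF4, ASNS, XBP1, HSPA5, DNAJB9 and HERPUD1, and every probe set whose only gene symbol in the array platform annotation is one of these 8 names was taken. This gave 8 probe sets for 6 genes, out of 52766 probe sets other than controls: TRIB3 and XBP1 have 2 each, and DDIT3, ATF4, ASNS and HERPUD1 have 1 each. HSPA5 and DNAJB9 were matched to no probe set and were not analysed here.

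The animals were 3 adult male cynomolgus macaques, an outbred primate for which the labels name no genotype. The left hemisphere of each received BV-HSVtk, a baculovirus named for herpes simplex virus thymidine kinase, as 4 injections into the caudate and putamen, each of 10 µL with 1e8 particles. The right hemisphere received a mock preparation, which was virus-free Sf9 insect cell medium put through the same purification, at matching coordinates. Tissue of about 100 mg was taken 2 days later, with 2 pieces per hemisphere and 1 array per piece, so 6 arrays come from BV and 6 from mock tissue. Each animal carries a run of replicate numbers (1 and 2 for animal 1, 3 and 4 for animal 2, 5 and 6 for animal 3), and the lower number of a run is its piece 1. Arrays of equal number in BV and mock tissue are called a pair. Virus and left hemisphere cannot be told apart.

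The integrated stress response begins when kinases such as PERK, GCN2, HRI or the double-stranded RNA sensor PKR phosphorylate the translation factor eIF2, which slows protein synthesis in general while the transcription factor ATF4 is translated more. ATF4 turns on genes of amino acid supply such as ASNS, the factor CHOP (DDIT3) and, with it, the pseudokinase TRIB3. The unfolded protein response is the reaction of the endoplasmic reticulum (ER) to misfolded proteins, and it runs through PERK, through ATF6 and through IRE1, which splices XBP1 mRNA into its active form. HERPUD1, a membrane protein of ER-associated degradation, is among its targets. Because ATF4 and XBP1 are also controlled by translation and splicing, a probe set signal reports only the amount of their mRNA, and these signals do not separate spliced from unspliced XBP1.

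Values below are normalized log2 signals, log2(signal + 3.49) after quantile normalization, and a difference is always BV minus mock. A difference is the limma estimate over 3 animals with its standard error, with both pieces of a hemisphere averaged first. A probe set passes at an adjusted p under 0.05, adjusted by the Benjamini-Hochberg method over all 31660 probe sets tested. Tested probe sets have a mean of at least 4.95, the 40th percentile. Levels of different probe sets are not comparable with each other.

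As a check of the labels, the interferon-induced gene ISG15 was 3.56 ± 0.13 higher in BV tissue (adjusted p = 0.00539), or 3.75 without mock replicate 5 (adjusted p = 0.335). In the whole fit 9 probe sets passed, all higher, which is 0.0284% of those tested, and 8.8% had an unadjusted p under 0.05. The piece 1 and piece 2 arrays were on different deposited scales, with medians from 50.2 to 62.8 and from 25.4 to 32.7. The labels name no batch and do not say why, and each piece number holds as many BV as mock arrays. Mock replicate 6 stood apart, with an actin 3'/5' signal ratio of 2.4 against 1.1 to 1.4 on the other 11 arrays, and the difference of each tested member probe set is given with and without it. The pieces also differed in brain region: the mean log2 signal of 7 markers of striatal medium spiny neurons ran from 5.59 to 10.39. Its BV minus mock difference was -4.24, -2.91 and -1.14 in pairs 2, 5 and 6, and 0.80, 1.32 and 0.39 in pairs 1, 3 and 4. In bulk tissue, fewer cells of a type and less RNA per cell cannot be told apart.

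No member passed the test, and whether the members differed from each other was not tested. ATF4, and TRIB3 on its tested probe set, had higher values in BV tissue in 6 of 6 replicate pairs, as in 3.37% of all probe sets. TRIB3, ATF4 and XBP1 each had their largest difference in animal 3. The differences of ASNS, HERPUD1 and DDIT3 were 0.21, 0.14 and 0.09. Of the 7 member probe sets tested, 0 passed, against 0.0284% of all probe sets. At an unadjusted p under 0.05 there were 2 of 7, TRIB3 and ATF4, both higher, against 8.8% of all probe sets in either direction and 5.15% in this one. TRIB3 passed the filter only through its BV values, so nothing is read from this count or from the TRIB3 pairs. Without TRIB3 the count is 1 of 6 probe sets. The median difference of the 6 genes, each by its brightest probe set, was 0.35, against 0.00 over 11143 genes taken the same way. It was 0.31, 0.18 and 0.58 in animals 1, 2 and 3. This median is a description for the same reason. Without TRIB3 it was 0.21, and over all 6 genes it was 0.19 in piece 1 arrays, 0.53 in piece 2 arrays and 0.21 without animal 3.

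**Figure D1:**
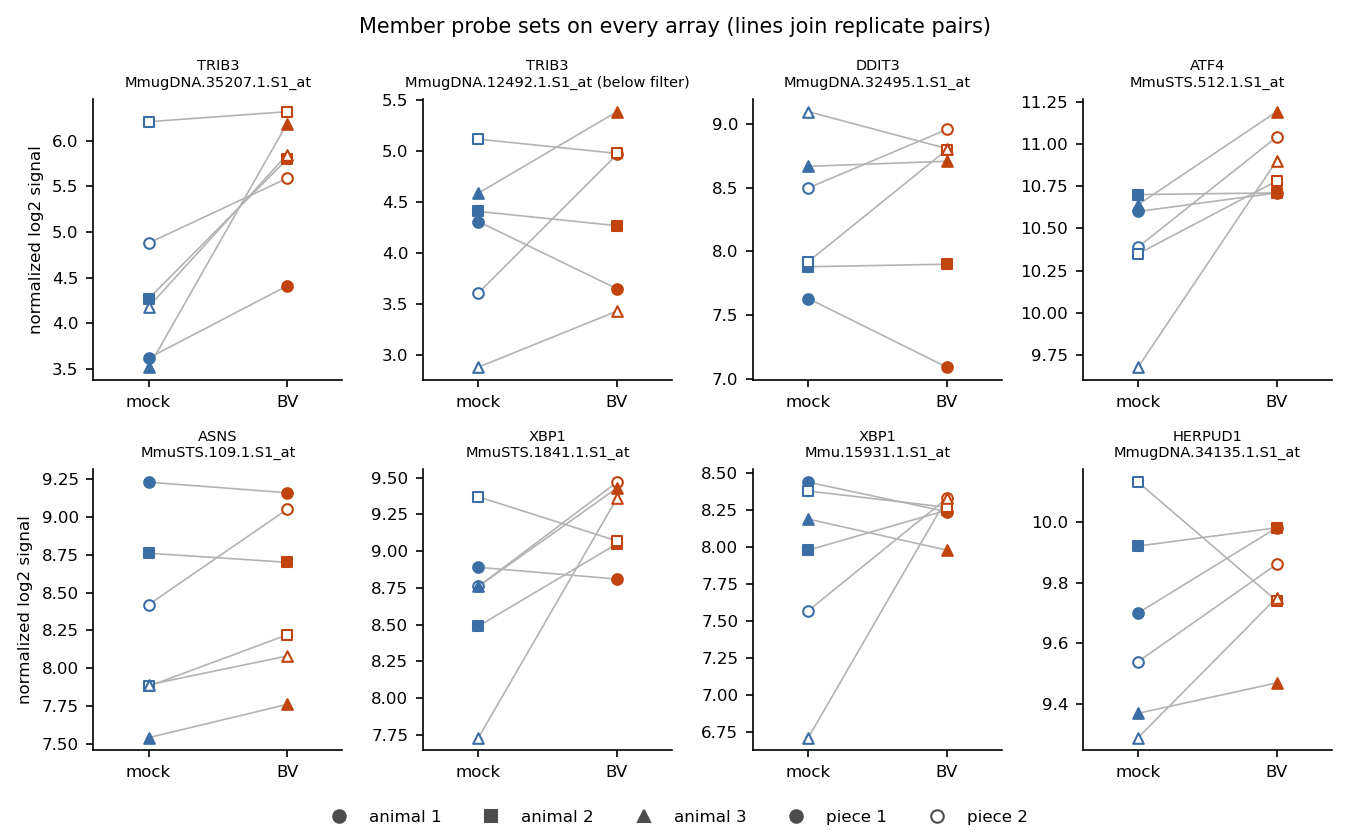
Normalized log2 signal of each of the 8 member probe sets (1 panel each, with its own vertical scale that does not start at 0) in mock and BV tissue. Each point is 1 array, shape gives the animal, filled points are piece 1 and open points piece 2, and lines join replicate pairs. In the ATF4 panel all BV points lie at or above 10.71 and all mock points at or below 10.70.

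ATF4, the basic leucine zipper factor at the centre of the integrated stress response, was the only member probe set whose BV and mock arrays did not overlap. Its BV arrays read 10.71, 11.04, 10.71, 10.78, 11.19 and 10.90 in replicates 1 to 6, and its mock arrays 10.60, 10.39, 10.70, 10.35, 10.64 and 9.68. Every BV array was above every mock array, which held for 0.237% of all probe sets tested, but the lowest BV value of 10.707 was next to a highest mock value of 10.698. This separation was not kept with another scaling. With median centring or without normalization the groups overlapped and ATF4 was higher in 5 of 6 pairs.

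The difference of ATF4 was 0.49 ± 0.15, or 1.41-fold, with a 95% interval from 0.12 to 0.87 (limma, unadjusted p = 0.0186, adjusted p = 0.564). Single animals had 0.38, 0.22 and 0.89. Without animal 3 it was 0.29 (adjusted p = 0.599). The piece 2 arrays, which share a trimmed mean signal of 100.01 as deposited, had deposited ATF4 signals of 1576, 1264 and 1406 in BV tissue and 1008, 926 and 626 in mock tissue. These do not overlap, with BV higher, which in piece 2 arrays without normalization held for 4.01% of all probe sets tested. The piece 2 arrays alone gave a difference of 0.71. In the piece 1 arrays the pairs differed by 0.11, 0.01 and 0.55. The separate fit of the piece 1 arrays alone gave 0.24, which is not the mean of those pair values. The lowest array was mock replicate 6, and without it the difference was 0.33 (adjusted p = 0.33).

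XBP1, the factor that IRE1 activates and that plasma cells and other secretory cells make in quantity, was measured by a pair of probe sets. On the brighter one, MmuSTS.1841.1.S1_at, the BV arrays read 8.81, 9.47, 9.05, 9.07, 9.43 and 9.36 and the mock arrays 8.89, 8.76, 8.49, 9.37, 8.76 and 7.73. The arrays overlap, since mock replicate 4 was as high as most BV arrays. The hemisphere means do not overlap: they were 9.14, 9.06 and 9.39 in BV and 8.82, 8.93 and 8.24 in mock tissue, a separation in this direction that 4.71% of all probe sets had. The difference was 0.53 ± 0.22 (95% interval -0.02 to 1.08, adjusted p = 0.564), with 0.32, 0.13 and 1.15 in single animals and a higher BV value in 4 of 6 pairs. Without animal 3 it was 0.22 (adjusted p = 0.854).

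The dimmer XBP1 probe set gave 0.36 ± 0.17 (adjusted p = 0.569), with a higher BV value in 3 of 6 pairs. Pairs 2 and 6 carried that value, at 0.76 and 1.61, while the other 4 ran from -0.21 to 0.27. Without mock replicate 6 the differences of these probe sets were 0.36 (adjusted p = 0.477) and 0.11 (adjusted p = 0.744). The mean of 4 B and plasma cell markers (CD79B, JCHAIN, DERL3 and PRDM1) had a positive difference in each of the 6 pairs, from 0.06 to 0.58, at a range of 5.98 to 6.41 in BV and 5.62 to 6.23 in mock arrays, and its part in the XBP1 values was not tested. The 4 genes were not alike: CD79B, JCHAIN and PRDM1 had differences of 0.45, 0.55 and 0.19, while DERL3 had -0.19 and was higher in 1 of 6 pairs.

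DDIT3 encodes CHOP, a factor that ATF4 induces and that promotes cell death under lasting ER stress. Its BV arrays read 7.09, 8.96, 7.90, 8.80, 8.71 and 8.81 and its mock arrays 7.63, 8.50, 7.88, 7.92, 8.67 and 9.10. The groups overlap over nearly their whole range, and the highest value of all was in mock tissue. The difference was 0.09 ± 0.17 (adjusted p = 0.825), with a 95% interval from -0.32 to 0.51. Single animals had -0.04, 0.45 and -0.12, and 4 of 6 pairs were higher in BV tissue. Without mock replicate 6 the difference was 0.17 (adjusted p = 0.661). The difference turned negative in the piece 1 arrays alone (-0.16), without BV replicate 2 (-0.22), BV replicate 4 (-0.05) or mock replicate 1 (-0.05), and without animal 2 (-0.08).

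ASNS, asparagine synthetase, is a classic target of ATF4 under amino acid shortage. Its BV arrays read 9.16, 9.05, 8.70, 8.22, 7.76 and 8.08 and its mock arrays 9.23, 8.42, 8.76, 7.88, 7.54 and 7.89. Here the animals differed more than the treatments: the hemisphere means of animals 1, 2 and 3 were 9.10, 8.46 and 7.92 in BV and 8.82, 8.32 and 7.71 in mock tissue, and the same order holds in both groups. Within animals the difference was 0.28, 0.14 and 0.20. The fit gave 0.21 ± 0.14 (95% interval -0.13 to 0.54, adjusted p = 0.594), and 0.27 without mock replicate 6 (adjusted p = 0.517). It was 0.03 in the piece 1 arrays and 0.39 in the piece 2 arrays.

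TRIB3, the pseudokinase that ATF4 and CHOP induce together and that restrains AKT and ATF4 activity, had the largest difference of the tested members, on a probe set near the filter level. On MmugDNA.35207.1.S1_at the deposited signals were 22, 26.8, 61.1, 55.7, 96.7 and 38.5 in BV and 10.8, 17.2, 23.8, 54.9, 11.9 and 10.8 in mock tissue. As normalized values the BV arrays ran from 4.41 to 6.32 with a median of 5.83, and the mock arrays from 3.52 to 6.21 with a median of 4.22. The BV array was the higher one in 6 of 6 pairs, as in 3.37% of all probe sets, but the groups overlap because BV replicate 1 was low and mock replicate 4 high. Nothing is read from this share, because the probe set passed the filter only through its BV values. In pair 4 the difference was only 0.12, and in pair 5 it was 2.66.

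The difference of this TRIB3 probe set was 1.25 ± 0.32, or 2.37-fold, with a 95% interval from 0.47 to 2.03 (unadjusted p = 0.00794, adjusted p = 0.516). Animals 1, 2 and 3 had 0.75, 0.82 and 2.17. The mean over BV hemispheres was 5.69 and that over mock hemispheres 4.45, which is below the filter level of 4.95. Without animal 2 it passed in the limma fit, at 1.45 (adjusted p = 0.0298), a setting in which 1855 probe sets passed, against 9 with all animals. Without animal 1 it was 1.49 and without animal 3 it was 0.79 (adjusted p = 0.764 and 0.405), and without mock replicate 6 it was 1.36 (adjusted p = 0.373). The size of the difference also moved with the pseudocount, from 1.38 with 1 to 0.87 with 16.

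The other TRIB3 probe set, MmugDNA.12492.1.S1_at, had a mean of 4.30 and was below the filter. Its BV arrays ran from 3.43 to 5.39 and its mock arrays from 2.88 to 5.12, with a difference of 0.29 and a higher BV value in 3 of 6 pairs. In pairs 1, 3 and 4 the probe sets of TRIB3 pointed opposite ways, at 0.79, 1.53 and 0.12 against -0.66, -0.14 and -0.14. The TRIB3 result therefore rests on 1 of 2 probe sets.

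HERPUD1, which helps extract misfolded proteins from the ER for degradation, gave the tightest readings of the members. Its BV arrays read 9.98, 9.86, 9.98, 9.74, 9.47 and 9.75 and its mock arrays 9.70, 9.54, 9.92, 10.13, 9.37 and 9.29. The highest value was in mock replicate 4, and the groups overlap. Pieces of the same hemisphere differed with a pooled SD of 0.14, against 0.33 to 0.79 for the other tested member probe sets. The difference was 0.14 ± 0.15 (95% interval -0.22 to 0.49, adjusted p = 0.706), with 0.30, -0.16 and 0.28 in single animals and a higher BV value in 5 of 6 pairs. Without mock replicate 6 it was 0.12 (adjusted p = 0.695).

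**Figure D2:**
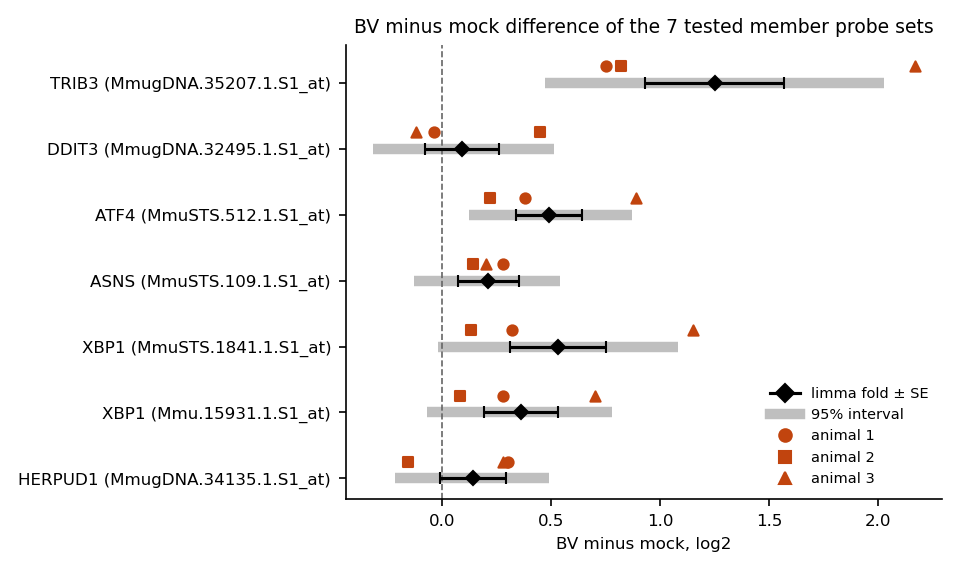
BV minus mock difference (log2, horizontal axis) of the 7 tested member probe sets. Diamonds with bars are the limma estimate ± SE over 3 animals, grey bands the 95% interval, and orange symbols the difference in each animal. TRIB3 at 1.25 and ATF4 at 0.49 have intervals above 0, DDIT3 at 0.09 lies on both sides of it, and no probe set passed after adjustment.

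Whether the treatment difference varied between animals was asked with a limma F test on the single arrays. Among member probe sets the unadjusted p ran from 0.188 for XBP1 (MmuSTS.1841.1.S1_at) to 0.965 for ASNS, and every adjusted p was 1. Over all probe sets 0 passed this test and 735 (2.32%) had an unadjusted p under 0.05. The larger values of TRIB3, ATF4 and XBP1 in animal 3 did not pass this test, whose error is the spread between pieces. That spread includes the differences of piece 1 and piece 2 described above, so the test cannot show that the animals were alike.

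ATF4 and the brighter XBP1 probe set had larger differences in pairs 2, 5 and 6 than in most other pairs. Pair 6 includes mock replicate 6, the array with an actin 3'/5' signal ratio of 2.4. In pairs 2, 5 and 6, where striatal neuron markers were lower in BV tissue, ATF4 differed by 0.64, 0.55 and 1.22 and XBP1 (MmuSTS.1841.1.S1_at) by 0.71, 0.67 and 1.63. In pairs 1, 3 and 4 the same values were 0.11, 0.01 and 0.43 for ATF4 and -0.08, 0.55 and -0.30 for XBP1. The dimmer XBP1 probe set did not follow this division, with 0.76, -0.21 and 1.61 against -0.19, 0.27 and -0.11. Nor did TRIB3, with 0.70, 2.66 and 1.67 against 0.79, 1.53 and 0.12.

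Markers of incoming neutrophils and monocytes also differed. The mean of 7 such genes (S100A8, S100A9, LYZ, FCN1, CSF3R, VCAN and CD14) ran from 6.61 to 8.90 in BV and from 5.65 to 8.66 in mock arrays. It had a positive difference in 5 of 6 pairs, most in pairs 2 and 6 with 2.09 and 1.84. FCN1, with the largest difference of the 7 at 1.51, had a mock mean of 4.25, below the filter level of 4.95. Microglia and macrophage markers were mixed: the mean of 9 genes had pair differences of 0.46, 0.23, 0.05, -0.09, 0.48 and 0.77. The largest was in pair 6, where ATF4 and XBP1 were also largest. That pair holds mock replicate 6, the array that stood apart in its actin ratio. C1QA, C1QB and CD68 had 0.58, 0.95 and 1.41 (limma, unadjusted p = 0.00226, 0.00135 and 0.0255, adjusted p = 0.397, 0.323 and 0.564), though the other probe sets of C1QA and CD68 had 0.14 and -0.17. AIF1, TMEM119 and CSF1R were also above 0, and CX3CR1, P2RY12 and MRC1 below it. Their part in the member values was not tested. The mean of 7 thalamic markers was higher in 5 of 6 pairs, by up to 1.77, but the genes were not alike. SHOX2, NTNG1, LHX9 and TCF7L2 had differences of 1.73, 1.44, 1.02 and 0.86, and RORA and PLEKHG1 0.36 and 0.14. PRKCD had -0.42 and was higher in 1 of 6 pairs. All 7 tested striatal markers had negative differences, from -1.17 to -0.71. None of the tested genes of these 4 lists passed.

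Fits with these marker means as a term were added after the data had been seen, on the 12 single arrays with the replicate pair as a block. With the striatal mean in the fit the differences were 0.39 ± 0.16 for ATF4, 0.41 ± 0.24 for XBP1 and 1.14 ± 0.34 for TRIB3. With the neutrophil and monocyte mean they were 0.14 ± 0.20 for ATF4, 0.09 ± 0.32 for XBP1 and 1.24 ± 0.50 for TRIB3. No adjusted p for these genes was under 0.446 in either limma fit. That second marker mean is itself higher in BV tissue, so the fit cannot tell the treatment from these markers where they move together. The striatal mean also differed within pairs, lower in BV tissue in 3 and higher in 3, so the first fit has the same limit. The TRIB3 estimate was close to its value without these terms, and its SE with the second was larger. TRIB3 passed the filter only through its BV values, and the part of these markers in its values was not tested.

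**Figure D3:**
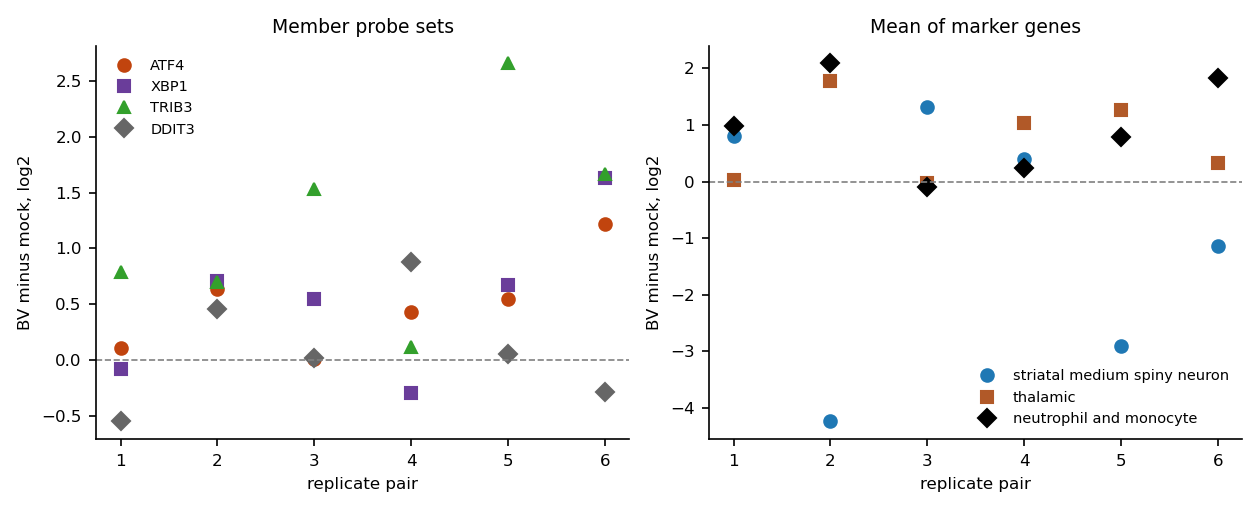
BV minus mock difference (log2, vertical axes) in each of the 6 replicate pairs, for ATF4, XBP1 (brighter probe set), TRIB3 (tested probe set) and DDIT3 on the left and for means of marker genes on the right. Striatal neuron markers were lower in BV tissue in pairs 2, 5 and 6, down to -4.24. ATF4 was highest in pairs 6 and 2, at 1.22 and 0.64, and pair 6 holds mock replicate 6, which stood apart in its actin ratio.

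The wider pathway was described with 8 lists of genes grouped by role, each gene by its brightest tested probe set. Of their 105 genes 0 passed in the limma fit, against 0.0538% of all genes. At an unadjusted p under 0.05 there were 10 higher and 1 lower, which is 10.5% of them, against 8.69% of the 11143 genes tested. Positive differences were found for 68.6% of the list genes and 50.5% of all genes, with medians of 0.11 and 0.00. A higher BV value in 6 of 6 pairs was found for 5 of the 105 list genes, against 447 of the 11143 genes. A lower one in 6 of 6 pairs was found for 1 list gene, against 391 of all genes. These pair counts are given below for single genes as a description only. Without animal 2, 1855 of the 31660 probe sets passed in the limma fit. PCK2, PDIA6, PDIA3, SPCS2, HSF1, SRP54 and TMED10 were among them, with differences from 0.70 for PDIA3 to 1.51 for HSF1. Their adjusted p in that limma fit ran from 0.0047 to 0.0482. They had been named for a large difference or with their values in view, which favours passing. The share over all 105 list genes is not given. Without mock replicate 6 the list medians ran from 0.01 for ER-associated degradation to 0.22 for ATF4 and CHOP partners and targets, and the differences of TMED10, ERO1A, DERL1, UBE2G2 and SLC7A11 were 0.24, 0.34, 0.29, 0.22 and -0.27.

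Sensors and transducers stayed close to the background, with a median of 0.04 over 11 genes and 0 that passed. EIF2AK3, the kinase PERK that senses ER stress and phosphorylates eIF2, had 0.32 ± 0.19 (adjusted p = 0.581), with 0.75 in animal 3. ATF6, the ER-anchored factor that is cut and released under stress, had -0.21 ± 0.16 (adjusted p = 0.619) and was lower in 5 of 6 pairs. MBTPS2, the protease that makes the second cut in ATF6, had 0.50 ± 0.20 (adjusted p = 0.564), while its other probe set had 0.09. ERN1, the kinase and nuclease IRE1, was below the filter. EIF2B1, a subunit of the exchange factor that phosphorylated eIF2 blocks, had 0.17 ± 0.14, with a higher BV value in 6 of 6 pairs and 0.48 on its other probe set (chosen after its values were seen).

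Partners and targets of ATF4 and CHOP had the highest list median, 0.25 over 15 genes, with 13 differences above 0 and 0 that passed. The animal medians were 0.27, 0.07 and 0.46. TRIB1, a relative of TRIB3 that directs proteins such as C/EBP factors to degradation, had 0.48 ± 0.14 (unadjusted p = 0.0136, adjusted p = 0.564), with 0.49, 0.50 and 0.46 in the animals and a higher BV value in 5 of 6 pairs. With single arrays left out it ran from 0.16 without BV replicate 4 to 0.81 without BV replicate 3. TRIB2, the third of this family, had 0.25 ± 0.18 (adjusted p = 0.61), and its other probe sets ran from -0.09 to 0.42.

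CEBPB, a leucine zipper partner of ATF4 and CHOP that also acts in inflammation, had 0.53 ± 0.14 (unadjusted p = 0.0106, adjusted p = 0.54). It was higher in 6 of 6 pairs, as in 3.37% of all probe sets, and its other probe set had 0.50. BBC3, the cell death protein PUMA, had 0.41 ± 0.15 and 6 of 6 pairs (adjusted p = 0.564). CEBPB and BBC3 were picked with their values in view. TNFRSF10B, a death receptor that CHOP induces, had 0.57 ± 0.28, made mostly of 1.30 in animal 1, and its mock mean of 4.79 lay below the filter level. ERO1A, the oxidase that recharges disulfide formation in the ER, had 0.54 ± 0.27, with 1.32 in animal 3 and -0.01 in animal 2. Its other probe sets had 0.41 and 0.94.

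Single targets of ATF4 pointed both ways. CHAC1, a glutathione-degrading enzyme that is a sensitive marker of the ATF4 and CHOP arm, had 0.38 ± 0.19 (adjusted p = 0.569), with -0.07 in animal 2. ATF3, a stress-induced factor downstream of ATF4, had -0.22 ± 0.15 (adjusted p = 0.6) and was lower in 5 of 6 pairs, while its other probe set had 0.13.

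Genes of amino acid synthesis and transport were mixed, with a median of 0.13 over 13 genes, 7 differences above and 6 below 0. PCK2, the mitochondrial enzyme of phosphoenolpyruvate synthesis, had 0.67 ± 0.20 (unadjusted p = 0.015, adjusted p = 0.564), with 0.60, 0.29 and 1.12 in the animals. SLC1A5, a glutamine carrier, had 0.75 ± 0.44, from values of -0.46, 0.72 and 1.97, and a mock mean of 4.66 below the filter level. GPT2, which makes alanine, had 0.38 ± 0.16 and 6 of 6 pairs. SLC7A11, the cystine carrier that ATF4 usually induces, pointed the other way at -0.41 ± 0.15 (unadjusted p = 0.0378, adjusted p = 0.564) and was lower in 6 of 6 pairs, as in 4.38% of all probe sets. GPT2 and SLC7A11 were picked with their values in view.

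The aminoacyl-tRNA synthetases, which load amino acids onto tRNA, had a median of 0.11 over 6 genes. WARS1, the tryptophan enzyme, which interferon gamma induces apart from stress, had the largest difference, 0.60 ± 0.22 (adjusted p = 0.564), with 1.23 in animal 3. Its other probe sets had 0.18 and 0.43. GARS1, the glycine enzyme, had 0.26 ± 0.15 (adjusted p = 0.577).

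ER chaperones and folding enzymes, the main output of ATF6 and XBP1, had a median of 0.15 over 15 genes, with none at an unadjusted p under 0.05 in the limma fit and animal medians of 0.20, -0.04 and 0.18. HSP90B1, the ER chaperone GRP94, was level at 0.00 ± 0.14, with a sign that changed between settings. PDIA4, a disulfide isomerase, had -0.07 ± 0.14, positive with median centring at 0.08. PDIA6 and PDIA3, enzymes of the same family, had 0.43 ± 0.22 and 0.42 ± 0.20 (adjusted p = 0.569 for both), and their other probe sets ran from 0.03 to 0.68 and from -0.21 to 0.58.

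ER-associated degradation had a median of 0.11 over 15 genes, led by DERL1, a channel protein for misfolded proteins, at 0.51 ± 0.24, and UBE2G2, a ubiquitin-conjugating enzyme, at 0.35 ± 0.18. Adjusted p was 0.569 and 0.57. Both had -0.03 in animal 2, and the other probe sets of DERL1 had 0.23 and 0.35.

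Translocation and traffic had a median of 0.08 over 20 genes. SPCS2, a signal peptidase subunit, had 0.78 ± 0.29, and SEC24D, a coat protein of ER export vesicles, 0.69 ± 0.27 with a mock mean of 4.94. SRP54, which brings ribosomes to the ER, had 0.62 ± 0.24, and the cargo receptor TMED10 0.60 ± 0.25 (both chosen after their values were seen). The other probe set of TMED10 had 0.34. Each of these 4 had an adjusted p of 0.564, with animal 2 at -0.04, 0.04, -0.03 and 0.13.

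The cytosolic heat shock list, a stress response of another compartment, had a median of 0.13 over 10 genes. HSF1, the factor that controls that response, had 1.15 ± 0.32 (unadjusted p = 0.0121, adjusted p = 0.559), with 0.93, 0.42 and 2.11 in the animals, and its other probe set had 0.59. DNAJB1, a co-chaperone that HSF1 induces, had 0.29 ± 0.16 (adjusted p = 0.576), and its other probe set had 0.78.

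**Figure D4:**
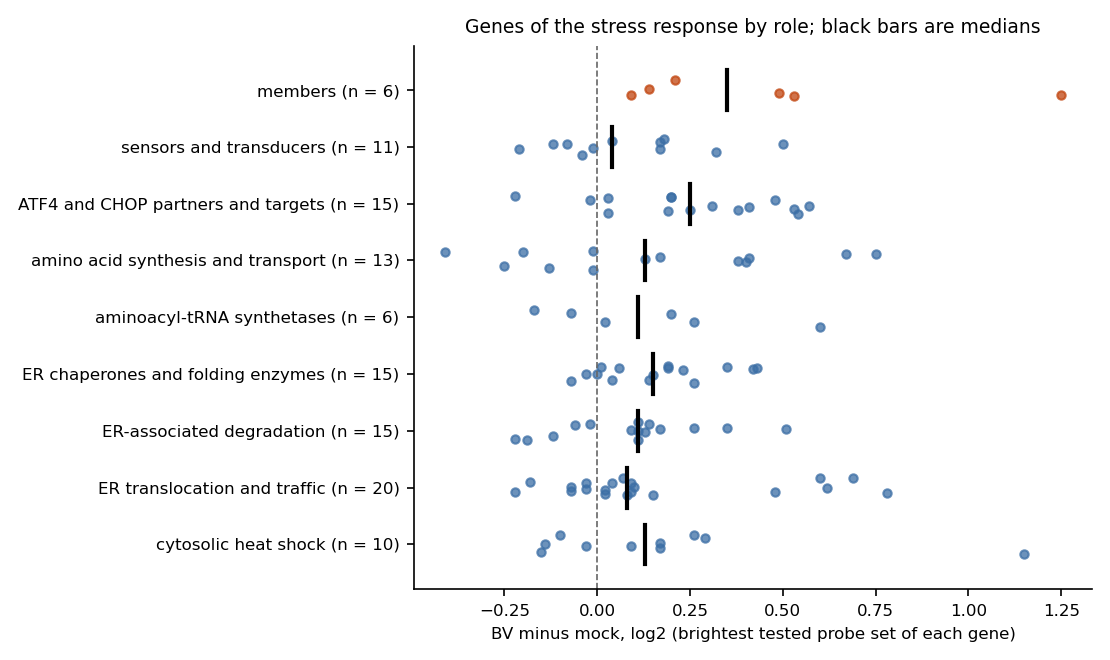
BV minus mock difference (log2, horizontal axis) of the 6 member genes (orange) and of the genes of 8 pathway lists (blue), each gene by its brightest tested probe set, with n the genes tested. Points are spread vertically only for visibility and black bars are medians, from 0.35 for the members and 0.25 for ATF4 and CHOP partners down to 0.04 for sensors and transducers.

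Genes whose 12 array values were most like those of a member were sought for TRIB3, XBP1 and ATF4, the 3 members of largest difference, by the root mean square difference after each probe set was centred on its own mean. The values describe 12 arrays from 3 animals, BV and mock together. A difference like that of the member follows from this choice of genes, so nothing is read from it. Nearest to TRIB3 were TNFAIP8, RNF149 and PIK3AP1, at 0.42, 0.43 and 0.46 log2 units against a median of 1.05 over all genes. Their own differences were 1.02 ± 0.35, 1.02 ± 0.23 and 0.78 ± 0.28. Nearest to XBP1 were CABCOCO1, TIAL1 and PPIL4, at 0.19, 0.20 and 0.20 against a median of 0.58. Nearest to ATF4 were HEMK1, DNPEP and NAPA, at 0.12, 0.14 and 0.15 against 0.50, with differences of 0.43 ± 0.22, 0.51 ± 0.20 and 0.59 ± 0.16. None of these 9 genes passed.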

How the data were processed

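RNA of 12 tissue pieces from 3 macaques was hybridised to rhesus macaque arrays. The authors deposited 1 linear intensity per probe set and array, made with GCOS 1.4.0.036 per the submitters' processing notes. How probes were summarised and arrays scaled is not given in the sources used here. Probes were designed for rhesus, so cynomolgus RNA may bind less well, and symbols may be old.

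Intensities were quantile normalized and taken as log2(signal + 3.49), the 10th percentile of all intensities, which understates folds of dim probe sets. After 99 control probe sets were left out, the 31660 with a mean at or above 4.95 (40th percentile) were tested. Pieces of a hemisphere were averaged and fitted in limma 3.58.1 (R 4.3.3) with animal as a block, eBayes with a trend, two-sided, Benjamini-Hochberg at 0.05. The block follows from the protocol, and hemispheres of an animal deviated together (r = 0.622, 0.156 and 0.361). Each gene was taken by its brightest tested probe set. The fit was tested on simulated data. The number of animals limits the precision.

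The members and lists were chosen with earlier results of these data known. Named genes were all member probe sets, from each list up to 3 passing genes or else the 2 of largest difference, and a panel; those outside this rule are said to be so. From the panel PPP1R15A, SESN2, CALR, DNAJC3, EIF2AK2 and SEL1L had no probe set of their own symbol in the annotation used and were not analysed here. Marker lists of other cell types are given in the report where they moved with a member. Pan-neuronal, astrocyte and endothelial markers had median differences of 0.11, 0.05 and 0.19 over 5, 5 and 4 genes. Astrocyte markers were not alike, from -1 for SLC1A2 (limma, adjusted p = 0.407) to 0.20 for ALDH1L1. Oligodendrocyte and choroid plexus markers had medians of 0.06 and 0.76 over only 2 genes each. The choroid plexus marker KCNJ13 had a mock mean of 4.87, below the filter level. Alternatives covered the pseudocount, normalization, filter, variance trend, block, piece and leaving out each array and animal.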

Additional observations from a re-analysis of the deposited data

Results flagged for a closer look

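In each group of 6 arrays the highest and lowest values were compared with their nearest neighbour, for 39 probe sets and 78 groups, and 3 arrays stood apart by Dixon's criterion at its 95% critical value. Chance alone marks about 1 group in 20. The ATF4 value of mock replicate 6 was 9.68, while the other mock arrays ran from 10.35 to 10.70. On the dimmer XBP1 probe set BV replicate 5 read 7.98, below the 8.24 to 8.33 of the other BV arrays. PCK2 read 5.56 in BV replicate 1, against 6.67 to 7.25 in the other BV arrays.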

How the results depend on the processing

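No member passed under 28 of the 29 alternatives; without animal 2 the count was 1 (TRIB3), so over the fits that leave out an array or animal it ran from 0 to 1. With the replicate pair as a block on 12 arrays TRIB3 had an adjusted p of 0.183 and ATF4 of 0.26 in limma, and this block changed no member call, while 55 probe sets passed against 9; arrays of equal number deviated together, with r from 0.284 to 0.623.

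The member median of 0.35 was 0.19 in piece 1 arrays, 0.53 in piece 2 arrays, 0.11 with the neutrophil and monocyte mean in the fit, and 0.21 (without animal 3) to 0.48 with an array or animal left out. The median without TRIB3, 0.21, was 0.34 with median centring, 0.39 in piece 2 arrays, 0.12 and 0.09 with the striatal and the neutrophil and monocyte means, and 0.15 to 0.41 with an array or animal left out.

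DDIT3 was -0.16 in piece 1 arrays and -0.22 to 0.41 with an array or animal left out. The dimmer XBP1 probe set was -0.04 in piece 1 arrays and -0.18 with the neutrophil and monocyte mean, where HERPUD1 was -0.11, CHAC1 -0.15, PDIA6 -0.04, TRIB2 -0.02, DERL1 -0.01 and HSP90B1 0.00. HSP90B1 was 0.00 without normalization, 0.14 with median centring and 0.03 in piece 2 arrays. PDIA4 was 0.08 with median centring. With an array or animal left out HSP90B1 ran from -0.08 to 0.07 and PDIA4 from -0.15 to 0.01.

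Among list medians, median centring gave 0.11 for sensors, 0.22 for amino acid genes, 0.24 for tRNA synthetases, 0.20 for translocation and 0.24 for heat shock. It moved the median of all probe sets from -0.02 to 0.07. No normalization gave -0.03 for sensors and 0.08 for amino acid genes, and a pseudocount of 16 gave 0.03 for sensors. Piece 1 arrays gave 0.02, 0.20 and 0.23 for sensors, amino acid and heat shock genes, and piece 2 arrays 0.13 and 0.04 for sensors and tRNA synthetases. The striatal mean gave 0.09 for amino acid genes, and the neutrophil and monocyte mean 0.02, 0.03 and -0.04 for sensors, amino acid genes and ER chaperones. With an array or animal left out, sensors ran from -0.02 to 0.14, amino acid genes from -0.01 to 0.25 and heat shock genes from 0.03 to 0.18. The cause of these shifts was not tested. TRIB3, near the filter level, is the member whose low signal limits it most.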
